A study of Mus musculus with 6 samples.

Results

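The genes described here are 7 complement genes, chosen by name as components and regulators of the cascade: C3, C4b, Cfb, Cfi, Cd55, Cd59a and Serping1. All 7 were found by their Ensembl identifiers, through the GENCODE mouse annotation, among the 55416 genes of the RNA-Seq table. The RNA came from organoids grown from crypts of the duodenum and jejunum of 3 wild-type C57BL/6 mice, and the organoids of each mouse were treated with 50 μg/ml low-density lipoprotein (LDL) or with PBS for 5 days. This gave 3 LDL-treated and 3 PBS-treated libraries, and the libraries with the same replicate number carry the same animal identifier. The labels give no age. Crypt-derived organoids are cultures of epithelium without the liver, blood, stroma and immune cells that surround it in the animal.

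Complement is a cascade of plasma and tissue proteins that tags and lyses microbes. C4, cleaved in the classical and lectin pathways, and factor B, encoded by Cfb and used in the alternative pathway, supply subunits of the C3 convertases, which cleave the central component C3. The cascade is restrained by soluble regulators and by proteins on the surface of host cells. Factor I (Cfi) cuts the active fragments of C3 and C4, C1 inhibitor (Serping1) blocks the proteases that start the classical and lectin pathways, decay-accelerating factor (Cd55) takes the convertases apart, and Cd59a stops assembly of the membrane attack complex. The liver is the main source of the plasma proteins, and epithelia also transcribe several of these genes, with C3 and factor B known as genes induced by inflammatory cytokines.

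The libraries held 22061545 to 31073360 reads on genes, and a level is given as a normalized count, which is the reads of a gene divided by the size factor of its library. The LDL library of mouse 1 stood apart, with 35781 genes holding a read against 29285 to 32751 in the other libraries, and with 7.62% of its reads on the ribosomal RNA gene Rn18s-rs5. The animal identifier of mouse 3 has another prefix than the other identifiers, which begin with WT, although the genotype label reads WT for every sample. Values without mouse 3 are therefore given as well. Epithelial markers were present throughout, with Epcam at 20049 to 24334 normalized counts, and their summed level over 12 genes was 117200 to 149800 with LDL and 109300 to 124200 with PBS. Sums over markers of other cell types were small. They were 102 to 174 with LDL and 170 to 194 with PBS over 12 stromal markers. The highest of these was Vim, at 68.2 to 140 over all libraries, while Lum, Des and Thy1 had at most 3 reads in any library. Over 12 immune markers the sums were 263 to 417 and 220 to 281. The highest was Cd68, at 112 to 176, while Tyrobp, for example, had at most 3 reads. Vim and Cd68 lay above C3, C4b, Serping1 and Cd59a in every library. Over 5 endothelial markers the sums were 16.4 to 39.03 and 18.7 to 34.7. Over 6 liver-type genes, which intestinal epithelium can also transcribe, the sums were 142 to 235 with LDL and 488 to 699 with PBS. Among these markers, limma with the mouse as a block called Krt8, Krt18 and Cd14 higher and Olfm4, Ttr and Serpina1a lower with LDL, and without the block it called Serpina1a alone. The part of these differences in the complement values was not tested. In bulk RNA, fewer cells of a type and less RNA per cell cannot be told apart.

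No member was called changed by LDL. A gene was tested where its mean over the 6 libraries was at least 10, and called where the Benjamini-Hochberg adjusted p of limma over all 18459 such genes was under 0.05 and the change was more than 1.5-fold. Of the 7 members, 4 were tested (Cfb, Cfi, Cd55 and Cd59a) and 0 were called, where 1.27% of all tested genes were called in either direction. With the mouse as a block, 0 members were called, where 9.14% of all genes were. The unadjusted p was under 0.05 for 2 members, Cfb and Cd59a, without the block, where 19.7% of all genes were, and for 3 with it, also Cd55, where 30.1% were. edgeR called 0 members without the block and 0 with it, where it called 1.39% and 9.53% of all genes. DESeq2 called 0 members without the block, where it called 6.47% of all genes, and 1 with it, Cd55, where it called 8.08%. Past both an unadjusted p of 0.05 and 1.5-fold downward, limma had 1 member, Cd59a, where 4.2% of all genes were. Cd59a passed the filter on the mean only through its PBS libraries, where it was high, so nothing is drawn from this count or from the unadjusted p of Cd59a. C3, C4b and Serping1 had means under 10 and are described by their values. Without the LDL library of mouse 1, which stood apart, the log2 differences were 1.16 for C3, 1 for C4b, −0.45 for Cfb, −0.16 for Cfi, 0.38 for Serping1, 0.32 for Cd55 and −1.63 for Cd59a. In that fit limma called 0 members, where it called 100 of all 18459 genes higher and 44 lower. Without mouse 3 those of C3, Serping1 and Cd55 were 1.68, 0.65 and 0.58, and the others are given with each gene.

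**Figure D1:**
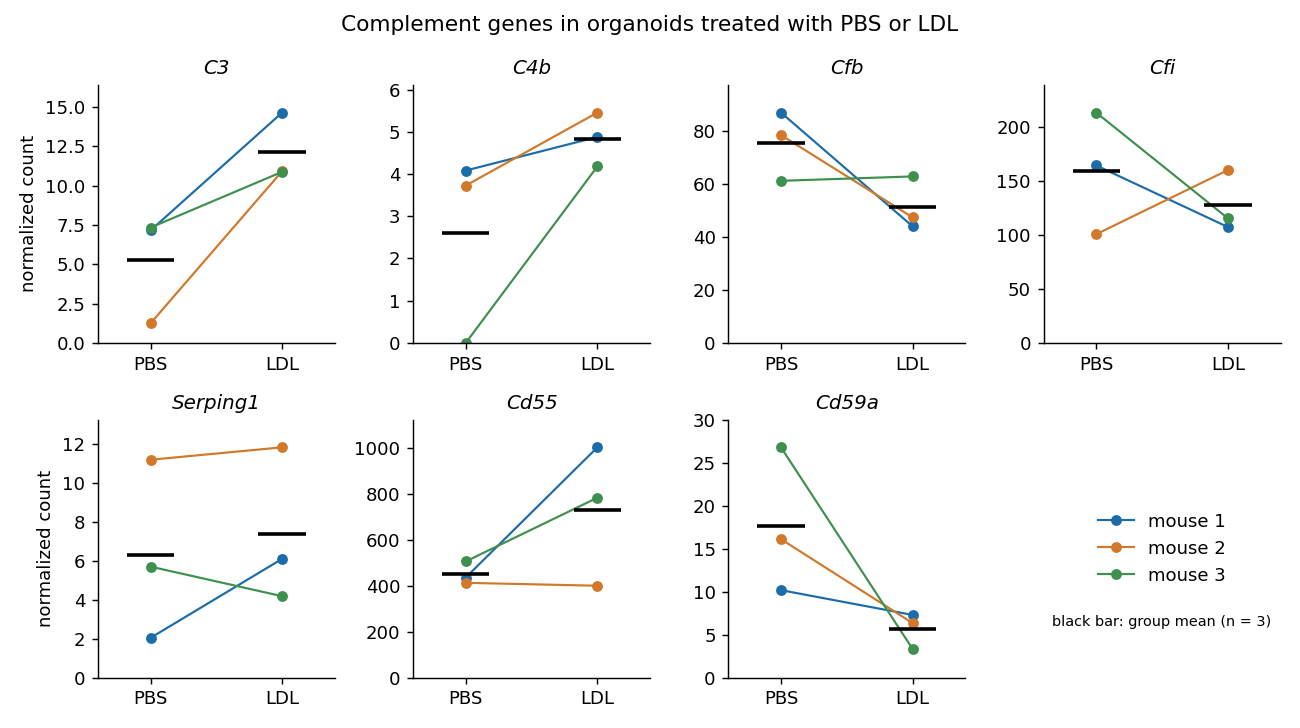
Normalized counts of the 7 members (vertical axes, each with its own scale) in PBS-treated and LDL-treated organoids, with 1 line per mouse joining its 2 libraries. C3 and C4b were higher with LDL in all 3 mice and Cd59a was lower in all 3, while the lines of Cfb, Cfi, Cd55 and Serping1 do not all run the same way.

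C3, the component on which all pathways converge, was near the limit of detection and was higher with LDL in each mouse. C3 (ENSMUSG00000024164, GRCm39 chr17:57510964-57535155, minus strand) was at 14.6, 10.9 and 10.9 normalized counts in the LDL-treated organoids of mice 1, 2 and 3, and at 7.15, 1.24 and 7.33 in the PBS-treated ones. The groups did not overlap, the PBS library of mouse 2 being the lowest with 1 read. The means of C3 were 12.1 ± 2.16 with LDL and 5.24 ± 3.46 with PBS (SD, n = 3 each), a difference of 1.29 on the log2(normalized count + 1) scale, and of 0.66 without the PBS library of mouse 2. These values rest on 37 reads over the LDL libraries (95% Poisson interval 26.1 to 51) and 17 over the PBS libraries (9.9 to 27.2), and the intervals cover counting error only. In a fit without a filter on the mean, over 43039 genes, the 95% interval of the C3 difference ran from −0.02 to 2.60 log2 and the limma adjusted p was 0.425 (0.249 with the mouse as a block). Among genes with a mean of 1 to 10, 9.91% had all LDL libraries above all PBS libraries. The stretch before the start of C3 is printed because it carried the sole match among the promoters examined, and its capitals mark that match, to the C/EBP motif TTGCNNAA, 45 to 38 bases before the RefSeq start. The stretch is GRCm39 chr17:57535156-57535386, minus strand, from the RefSeq promoter table (build GRCm38.p6) and matched once in GRCm39, without the 19 bases inside the first GENCODE exon.
C3 promoter: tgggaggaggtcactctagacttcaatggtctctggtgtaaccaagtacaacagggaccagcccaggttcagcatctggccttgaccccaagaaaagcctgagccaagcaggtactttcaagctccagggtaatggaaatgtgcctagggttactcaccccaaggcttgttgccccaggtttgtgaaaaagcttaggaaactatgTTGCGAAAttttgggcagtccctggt
This motif, searched on both strands, was found in 9.56% of 32851 RefSeq promoters of the same 250 bases. The other motifs searched were NF-kB, found in 3.9% of promoters, the interferon-response motif TTCNNNGAA, found in 7.02%, and the PPAR DR1 motif, found in 0.0335%. None was found in the C3 window. A match describes the letters and is no binding site.

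C4b, the complement C4 gene proper of the mouse, was the lowest member. C4b (ENSMUSG00000073418, chr17:34947354-34962912, minus strand) was at 4.88, 5.46 and 4.18 normalized counts with LDL and at 4.08, 3.73 and 0 with PBS. The groups did not overlap, but they were set apart by 4, 6 and 5 reads against 4, 3 and 0, and 3 reads already come to 2.44 to 3.73 normalized counts. The log2 difference was 1.01, and in the fit without a filter its 95% interval ran from −0.52 to 2.54 with a limma adjusted p of 0.644. Without mouse 3, whose PBS library held no read, the log2 difference was 0.33. C4b lies in the class III region of the major histocompatibility complex beside C4a, a near copy of it, and 11.2% of the 100-base windows of the C4b transcripts are found unchanged in C4a. How reads that match both genes were counted is not stated, so the split between them is uncertain. Coding bases 2638 to 2697 of C4b and 2569 to 2628 of C4a are shown, from the GENCODE models, with the 9 differing bases in capitals. They are the first stretch of 60 bases without a gap from the middle of the alignment on.
C4b: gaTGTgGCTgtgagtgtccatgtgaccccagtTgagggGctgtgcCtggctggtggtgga
C4a: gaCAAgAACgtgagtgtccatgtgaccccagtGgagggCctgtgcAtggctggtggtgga
Over the whole coding sequence 94.9% of aligned bases were identical. C4a was at 13.4, 17.3 and 28.4 normalized counts with LDL and 23.5, 8.70 and 9.77 with PBS, and these groups overlapped. Its log2 difference was 0.53 ± 0.46 (SE, limma adjusted p = 0.577), and that of C4b and C4a summed was 0.63 (limma adjusted p = 0.470).

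Cfb, the protease subunit of the alternative convertase, had lower values with LDL in 2 of the 3 mice. Cfb (ENSMUSG00000090231, chr17:35074852-35081559, minus strand) was at 43.9, 47.3 and 62.7 normalized counts in the LDL-treated organoids of mice 1, 2 and 3, and at 86.8, 78.3 and 61.1 in the PBS-treated ones. The groups overlapped through mouse 3, whose LDL library was the highest of its group and its PBS library the lowest. Within a mouse the ratio of LDL to PBS was 0.506, 0.604 and 1.03. The means were 51.3 ± 10.02 with LDL and 75.4 ± 13.1 with PBS (SD, n = 3 each), a log2 difference of −0.55 ± 0.23 (SE) with a 95% interval of 0.471 to 0.993 for the fold, and the limma adjusted p was 0.247. Without mouse 3 the log2 difference was −0.84 (limma adjusted p = 0.718). The Cfb count may be understated, since 65.7% of its exon bases lie in Gm20547, a gene annotated on the same strand that held 0 reads in every library, and 49.8% lie in exons of Nelfe on the other strand. Only 744 of its 3420 exon bases, or 21.8%, lie in neither. Nelfe, a subunit of the negative elongation factor, was at 918 to 1362 normalized counts. The library kit marks the strand, but whether counting used it is not stated.

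The soluble regulators showed no common direction. Cfi (ENSMUSG00000058952, chr3:129629533-129668981, plus strand) was at 107, 160 and 115 normalized counts with LDL and at 164, 101 and 213 with PBS. The groups overlapped, and the mice differed in direction, with ratios of LDL to PBS of 0.653, 1.59 and 0.541. The means were 128 ± 28.4 with LDL and 159 ± 56.5 with PBS (SD, n = 3 each), with a log2 difference of −0.28 ± 0.29 (SE), a 95% interval of 0.518 to 1.32 for the fold and a limma adjusted p of 0.660. Without mouse 3 the difference was 0.03. Serping1 (ENSMUSG00000023224, chr2:84595705-84620873, minus strand) was at 6.10, 11.8 and 4.18 normalized counts with LDL and at 2.04, 11.2 and 5.70 with PBS. It was low in both groups, which overlapped, and mouse 2 gave the highest value of each. The counts were 23 reads over the LDL libraries (95% Poisson interval 14.6 to 34.5) and 18 over the PBS libraries (10.7 to 28.4). The log2 difference of Serping1 was 0.31, and the limma adjusted p was 0.847 in the fit without a filter, with a 95% interval of −1.09 to 1.70 log2.

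Cd55, which protects the apical face of epithelial cells from convertases, was the most abundant member and was higher with LDL in 2 of the 3 mice. Cd55 (ENSMUSG00000026399, chr1:130366469-130390926, minus strand) was at 1005, 401 and 785 normalized counts in the LDL-treated organoids of mice 1, 2 and 3, and at 437, 414 and 507 in the PBS-treated ones. The LDL libraries of mice 1 and 3 lay above all PBS libraries and that of mouse 2 lay below all of them, with ratios of LDL to PBS of 2.30, 0.969 and 1.55. The means were 730 ± 306 with LDL and 453 ± 48.7 with PBS (SD, n = 3 each), with a log2 difference of 0.59 ± 0.30 (SE), a 95% interval of 0.929 to 2.46 for the fold and a limma adjusted p of 0.328. The call turned on the model and on 1 library. With the mouse as a block the limma adjusted p was 0.0884. DESeq2 with the block called Cd55 at an adjusted p of 0.0176 (log2 difference 0.62), where it called 5.31% of all genes higher. Without the LDL library of mouse 2, limma called Cd55 at an adjusted p of 0.00415 (log2 difference 0.98). That fit called 1179 of all 18459 tested genes higher, against 162 with all libraries.

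The near copy Cd55b lies next to Cd55 on chr1:130316263-130350815, minus strand, and had lower values with LDL in all 3 mice, including mouse 1 and mouse 3, where Cd55 was higher. Cd55b (ENSMUSG00000026401) was at 135, 139 and 120 normalized counts with LDL and at 178, 181 and 220 with PBS. The groups did not overlap, and 12.3% of all tested genes had all LDL libraries below all PBS libraries. The log2 difference of Cd55b was −0.54 ± 0.15 (SE), with a fold interval of 0.537 to 0.876 and a limma adjusted p of 0.116. With the mouse as a block the limma adjusted p was 0.0474, but the change was under 1.5-fold and so was not called. Cd55os, a non-coding RNA on the other strand that shares 214 exon bases with Cd55b, had means of 38.5 normalized counts with LDL and 23.5 with PBS. Fewer windows were shared than between the C4 genes. Of the 100-base windows 3.05% of Cd55 and 9.58% of Cd55b are found in the other, and 80.1% of their aligned coding bases are identical. Coding bases 668 to 727 of Cd55 and 662 to 721 of Cd55b are shown, taken from the middle of the alignment by the same rule, with differing bases in capitals.
Cd55: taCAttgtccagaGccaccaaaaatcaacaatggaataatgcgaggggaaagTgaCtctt
Cd55b: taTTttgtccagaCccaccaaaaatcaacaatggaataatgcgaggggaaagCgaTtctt
Cd55 took 88.1% (95% Wilson interval 85.9 to 90.1), 74.2% (70.6 to 77.6) and 86.7% (84.6 to 88.6) of the reads on both genes in the LDL libraries of mice 1, 2 and 3. In the PBS libraries it took 71.1%, 69.5% and 69.8%. The share was higher with LDL in 3 of 3 mice, at 83.0 ± 7.64% against 70.1 ± 0.848% (SD, n = 3 each). This measure was chosen after the values of both genes had been seen, and the intervals cover counting error only. Its exact permutation p was 0.1, the smallest that 3 against 3 libraries can give, so nothing is drawn from it. The log2 difference of the summed genes was 0.36 (limma adjusted p = 0.488).

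**Figure D2:**
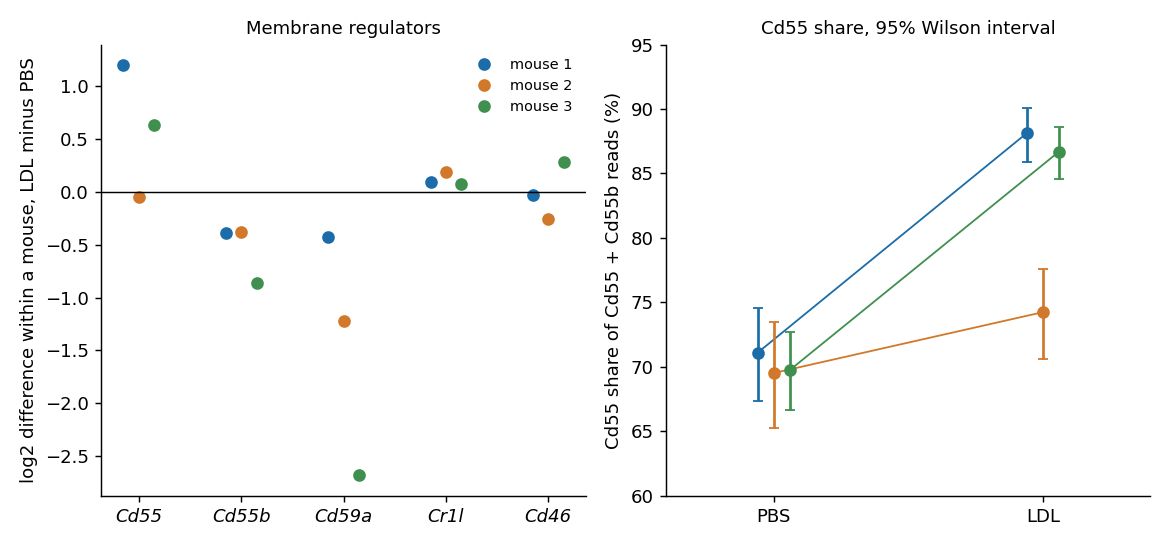
Left, the difference of LDL minus PBS within each mouse, in log2(normalized count + 1), for 5 membrane regulators, with 1 point per mouse. Cd55b and Cd59a lie below 0 in all 3 mice and Cr1l above 0 in all 3. Right, the percentage of the Cd55 and Cd55b reads that fell on Cd55, with 95% Wilson intervals, on an axis that does not start at 0. The LDL libraries of mice 1 and 3 stand at 88.1% and 86.7%, that of mouse 2 at 74.2%, and the PBS libraries at 69.5 to 71.1%.

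Cd59a, the inhibitor of the membrane attack complex, was low and had lower values with LDL in all 3 mice. Cd59a (ENSMUSG00000032679, chr2:103926132-103947029, plus strand) was at 7.32, 6.37 and 3.34 normalized counts with LDL and at 10.2, 16.2 and 26.9 with PBS. The groups did not overlap, as in 12.3% of all tested genes in this direction, and mouse 3 held both the lowest and the highest value. Ratios of LDL to PBS were 0.717, 0.394 and 0.124, and the reads were 6, 7 and 4 against 10, 13 and 33. The means were 5.68 ± 2.07 with LDL and 17.7 ± 8.44 with PBS (SD, n = 3 each). The log2 difference was −1.44 ± 0.46 (SE), with a 95% interval of 0.177 to 0.764 for the fold and a limma adjusted p of 0.144. With the mouse as a block the adjusted p was 0.0817 in limma and 0.0523 in edgeR, DESeq2 gave none (NA), and without mouse 3 the limma log2 difference was −0.82 (adjusted p = 0.755). In the fits without a filter on the mean, through which Cd59a passed only by its PBS libraries, the limma adjusted p was 0.237, and 0.1603 with the block. The stretch before its start (GRCm39 chr2:103925896-103926131, plus strand, from the RefSeq promoter table, without 14 bases inside the GENCODE gene) is shown beside that of C3 as the other member with sequence ahead of its first exon, and it held none of the 4 motifs.
Cd59a promoter: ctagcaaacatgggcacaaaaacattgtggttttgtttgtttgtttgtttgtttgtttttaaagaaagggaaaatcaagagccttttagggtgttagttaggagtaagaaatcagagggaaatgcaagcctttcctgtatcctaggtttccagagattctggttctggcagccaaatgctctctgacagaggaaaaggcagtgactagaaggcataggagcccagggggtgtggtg
The table also held Cd55, whose window overlaps an annotated exon, and C4b, Cfb, Cfi and Serping1 were not matched. The paralog Cd59b lay at 17.1, 2.73 and 0.836 normalized counts with LDL and 7.15, 3.73 and 4.88 with PBS, too few to test, and its groups overlapped. Coding bases 202 to 261 of Cd59a and 199 to 258 of Cd59b differ at 23 of 60 positions, which are in capitals.
Cd59a: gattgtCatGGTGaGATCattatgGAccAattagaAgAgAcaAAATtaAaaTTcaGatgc
Cd59b: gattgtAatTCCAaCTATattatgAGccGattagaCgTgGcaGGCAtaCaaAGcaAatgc
Of the 100-base windows of Cd59a 2.96% are found in Cd59b, and 74.9% of the aligned coding bases of Cd59a and Cd59b are identical. The log2 difference of the summed genes was −1.08 (limma adjusted p = 0.348).

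Per exon length, the members covered a wide range, led by the regulators Cd55 and Cfi. Levels between genes are compared as RPKM, the reads of a gene scaled to its exon length and to the reads on genes of the library. With PBS, Cd55 stood at 2.55 to 3.39 and Cfi at 1.52 to 3.48, so these neighbours overlapped. Cfb followed at 0.706 to 1.02, apart from both its neighbours. Cd59a was at 0.0653 to 0.169 and Serping1 at 0.0270 to 0.134, which overlapped, and C3 at 0.00875 to 0.0559 overlapped Serping1. C4b was last, at 0 to 0.0271, and overlapped C3. With LDL, Cd55 was at 2.62 to 5.81, Cfi at 1.51 to 2.55 and Cfb at 0.439 to 0.753, in the same order and without overlap. Below them, Serping1 at 0.0565 to 0.1504 and C3 at 0.0813 to 0.0966 overlapped, as did Cd59a at 0.0219 to 0.0398 and C4b at 0.0275 to 0.0348. Among 42561 genes with a level, Cd55 was above 81.7%, Cfi above 76.4%, Cfb above 64.8% and the other members above 30.8 to 46.6%. Exon length counts every annotated exon of a gene, so genes with long alternative exons, such as Cd55 and Cd59a, are understated on this scale. Cfb may be understated as well, since only 21.8% of its exon bases lie in neither Gm20547 nor Nelfe.

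**Figure D3:**
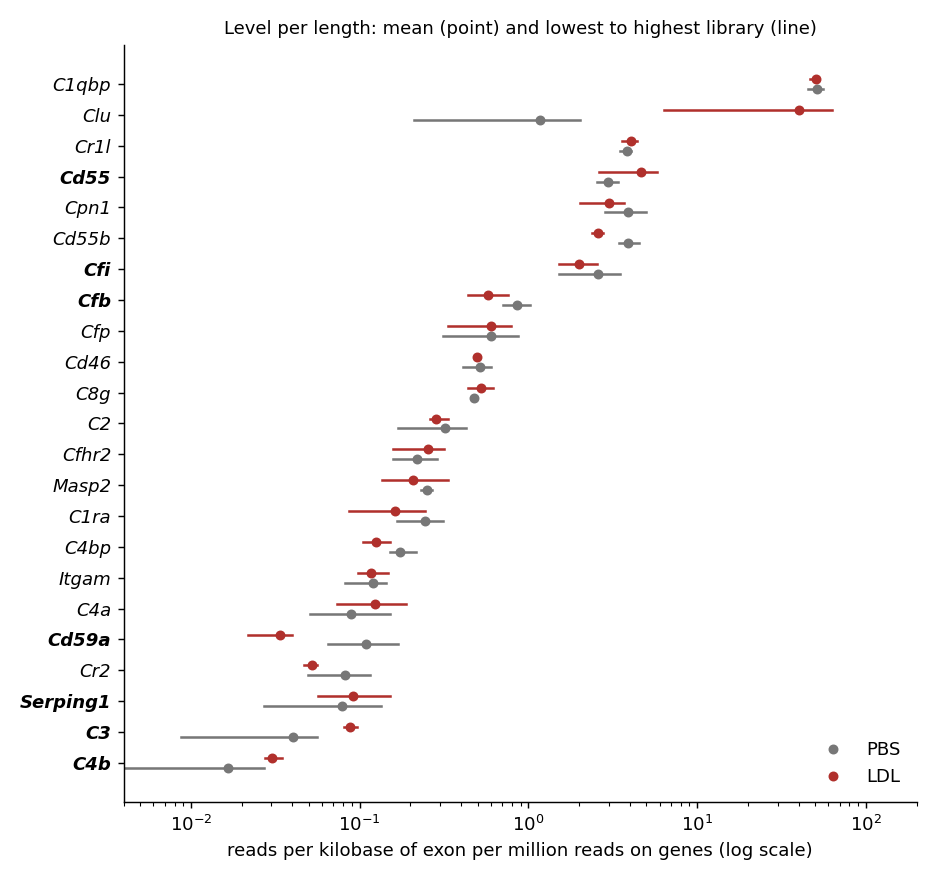
Levels of the 7 members (bold) and the other tested complement genes on a log axis of RPKM, with a point for the mean of each group of 3 libraries and a line from its lowest to its highest library. The line of C4b with PBS runs to the edge of the axis because 1 library held no read. Among the members, Cd55, Cfi and Cfb stand at 0.439 or above in every library, and the others at or below 0.169.

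As counted, the summed level of surface regulators exceeded that of convertase components in every library. Summed in RPKM, the membrane regulators Cd55, Cd55b, Cd59a, Cd59b, Cr1l and Cd46 came to 12.5, 10.2 and 13.0 with LDL and 11.3, 10.2 and 12.6 with PBS, and the convertase components C3, C4b, C4a, C2 and Cfb to 0.898, 1.02 and 1.39 with LDL and 1.68, 1.09 and 1.19 with PBS. Cr1l, Cd55 and Cd55b carried the sum of the regulators. Cd59a and Cd59b lay below Cfb in every library, and Cd46, at 0.410 to 0.599, overlapped Cfb. The ratio of the sums was 13.9, 10.02 and 9.35 with LDL and 6.74, 9.37 and 10.6 with PBS, so the groups overlapped and the mice differed in direction. The component sum may be understated, since 65.7% of the exon bases of Cfb and 38.4% of those of C2 lie in Gm20547. The size of the ratio is therefore uncertain. Cr1l, the rodent regulator that blocks C3 convertases at the cell surface, was at 1301, 1371 and 1341 normalized counts with LDL and 1221, 1200 and 1276 with PBS. Its groups did not overlap, and its log2 difference of 0.12 ± 0.08 (SE) had a fold interval of 0.953 to 1.24 and a limma adjusted p of 0.477.

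Of 50 other complement genes, 16 were tested and 0 were called by limma without the block, 2 of them at an unadjusted p under 0.05. The shares over all tested genes were 1.27% called and 19.7% at an unadjusted p under 0.05. The log2 differences of the 16 were above 0 in 7 and below 0 in 9, with a median of −0.00 against −0.02 over all tested genes. With the mouse as a block, limma called 1, Clu, as did edgeR with the block and DESeq2 without and with it, while edgeR without the block called 0. These fits called 9.14%, 9.53%, 6.47%, 8.08% and 1.39% of all tested genes, in that order. Clu, which encodes clusterin, a secreted chaperone that also binds the late complement complex, was at 10347, 931 and 7102 normalized counts with LDL and at 285, 32.3 and 185 with PBS. Every LDL library lay above every PBS library, and mouse 2 was the lowest within each treatment. The log2 difference was 5.08 ± 1.03 (SE) with a limma adjusted p of 0.0614, and ± 0.11 (SE) with 1.44e-06 with the block.

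The remaining groups of complement genes held no call by limma without or with the block, where 1.27% and 9.14% of all tested genes were called. Of 19 genes of initiation 5 were tested, and the highest normalized counts were those of C2, the protease subunit of the classical convertase (log2 difference −0.04 ± 0.34), and Cfp, properdin, which stabilizes the alternative convertase (0.06 ± 0.41). Of 7 terminal genes 1 was tested, C8g, a subunit of the membrane attack complex, at 23.4 to 30.0 normalized counts with LDL and 22.5 to 23.6 with PBS. Of 10 receptors 3 were tested, and the highest normalized counts were those of C1qbp, a mainly mitochondrial protein that binds C1q, at 3879 to 4180 with LDL and 3827 to 4327 with PBS, and of Itgam, the complement receptor chain of myeloid cells, with a mean of 15.7. Of the 34 genes under the filter, 11 had at most 3 reads in every library, and 15 had their highest value in the LDL library of mouse 1, the library that stood apart.

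**Figure D4:**
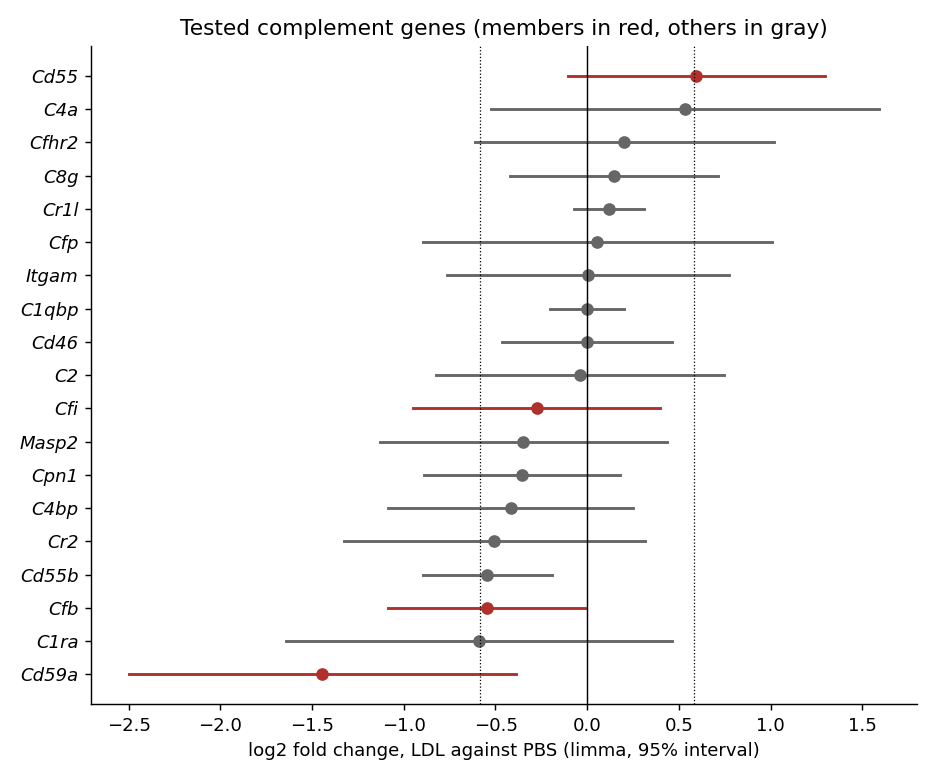
Log2 differences (LDL minus PBS) with 95% limma intervals for the 4 tested members (red) and the other tested complement genes (gray), with dotted lines at 1.5-fold. Clu, at 5.08, is left out. The interval of Cd59a lies wholly below 0, that of Cfb reaches up to −0.01, and those of Cfi and Cd55 cross 0. Cd59a passed the filter on the mean only through its PBS libraries, so nothing is drawn from its interval.

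Of 17 receptors, transcription factors and signalling inhibitors known to act on acute-phase genes, 15 were above the filter. The cytokine receptor genes Osmr and Il1r1, with means of 4.18 and 4.55 normalized counts, were below it. Of the 15 tested, 0 were called by limma without the block (3 at an unadjusted p under 0.05, where 19.7% of all tested genes were), and 0 by edgeR. With the block limma, edgeR and DESeq2 each called 2, Irf1 and Nr1h4, where they called 9.14%, 9.53% and 8.08% of all tested genes. DESeq2 without the block called 1, Nr1h4, where it called 6.47%. Irf1, an interferon-induced transcription factor, was at 245, 417 and 459 normalized counts with LDL and 169, 251 and 290 with PBS. It was higher with LDL in every mouse although the groups overlapped, with a log2 difference of 0.64 ± 0.28 (SE, limma adjusted p = 0.260, and 0.00752 with the block). Nr1h4, the bile acid receptor FXR, which can drive C3 in liver, was at 559, 679 and 541 with LDL and 343, 461 and 246 with PBS. The groups of Nr1h4 did not overlap, with a log2 difference of 0.80 ± 0.22 (SE, limma adjusted p = 0.114, and 0.00607 with the block). The highest normalized counts, which are not scaled to length, were those of Nfkb1, a precursor of NF-kB, with a log2 difference of −0.33 ± 0.10, and Ifngr1, a chain of the interferon-gamma receptor, with 0.33 ± 0.09, neither past 1.5-fold.

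Of 15 acute-phase or cytokine-induced products 2 were tested, Nos2 and Cp, 10 had at most 3 reads in every library, and Saa1 and Orm1 had none. Nos2, inducible nitric oxide synthase, was at 93.9, 50.02 and 88.6 normalized counts with LDL and 31.6, 21.1 and 25.2 with PBS. Its groups did not overlap, with a log2 difference of 1.51 ± 0.30 (SE, limma adjusted p = 0.0614). Nos2 was called by limma and edgeR with the block (limma adjusted p = 0.00448) and by DESeq2 without and with it. These fits called 9.14%, 9.53%, 6.47% and 8.08% of all tested genes, in that order. Cp, the copper carrier ceruloplasmin, had a log2 difference of 0.18 ± 0.33 (SE, limma adjusted p = 0.814). Of 9 genes that neighbour C4b and Cfb in the class III region, 7 were tested and 0 were called in any of these fits, with 0 at an unadjusted limma p under 0.05 and a median log2 difference of −0.05. The highest normalized counts among them were those of Ehmt2, a histone methyltransferase, at −0.22 ± 0.11, and Skic2, an RNA helicase, at 0.06 ± 0.11.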

How the data were processed

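The authors removed ribosomal RNA, made stranded libraries, aligned single-end reads with STAR, counted them per gene with featureCounts and used DESeq2. The submitters' processing notes name bcl2fastq 2.20 and the build GRCm39. The deposited signal values are normalized counts. Whole reads were recovered from 100% of them (tolerance 0.01 read) and gave 22061545 to 31073360 reads per library. GENCODE M39 matched 54749 of 55416 identifiers, and 12377 genes had no read.

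LDL and PBS libraries were compared with limma 3.58.1 (R 4.3.3, eBayes with a trend, two-sided) on log2(normalized count + 1). The mouse was left out of this fit, since the study's methods give no such term. It was added as a block in an alternative, because libraries of the same number come from the same animal. Their deviations from the group means correlated with r = 0.484, 0.421 and 0.462 across genes, which are not independent. edgeR 4.0.16 and DESeq2 1.42.0 were run on the recovered reads, with adjusted p-values left as NA where DESeq2 gave none. Other alternatives were pseudocounts of 0.5 and 5, the filter on the mean left out or raised to 50, scaling to the upper quartile, quantile normalization, omission of each of the 6 libraries, mouse 3 left out, and sums of paralogs. Chosen after seeing the values were the fits that combine the block with no filter, with omission of mouse 3 or with paralog sums. The fits were checked on simulated counts. Python 3.11.15 and pandas 2.3.3 were used for the tables.

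The members, lists and tests were chosen with earlier results of these data known. Named genes are the members, their close paralogs, listed genes called without or with the block, the 2 tested genes of each list with the highest mean normalized count, and the 5 genes most like C3. Some genes are left unreported. The p-values measure the spread between cultures of 3 mice.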

Additional observations from a re-analysis of the deposited data

How the results depend on the processing

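Over the settings tried, Cfb stayed below 0 (log2 −0.84 to −0.44), as did Cd59a (−1.86 to −0.82), Cd55 stayed above 0, and neither Cfb, Cfi nor Cd59a was called. Cfi turned to 0.027 without mouse 3, without and with the replicate block, and the cause was not tested. Cd55 was called, as 1 member higher, by DESeq2 with the block (0.62) and without the LDL library of mouse 2 (leaving out 1 library gave 0.32 to 0.98, with 0 or 1 member called higher). At an unadjusted p under 0.05 and more than 1.5-fold, 1 member, Cd59a, was lower. Of the untested members, C3 (0.66, without the PBS library of mouse 2, to 1.68) and C4b (0.25 to 1.42) stayed above 0, and Serping1 ran from −0.21 to 0.79. The replicate block, which pairs libraries of the same animal, changed no call of a member in limma, edgeR or the fit without a filter.

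Counts over all genes, higher and lower with LDL, moved more. From 162 and 73 they went to 1048 and 639 with the block, 506 and 245 without a filter (1060 and 635 with the block), 846 and 348 with DESeq2 (981 and 511 with the block), 1171 and 588 with edgeR and the block, and 1170 and 776 at an unadjusted p. Without mouse 3 they were 0 and 0, and 265 and 77 with the block. Leaving out 1 library gave 18 to 1179 higher and 2 to 1133 lower, the highest without the LDL library of mouse 2 and the lowest without that of mouse 3. Depth limits C3, C4b, Serping1 and Cd59a, which hold 0 to 33 reads per library.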

Other observations

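The genes whose values were most like those of C3 over the 6 libraries were named by Pearson correlation of log2 values among 11939 tested genes with a mean of at least 100. They were Rprd1b (r = 0.992), Thap1 (0.991), Yap1 (0.990), Ninl (0.988) and Aldh7a1 (0.986). The points are 6 libraries in 2 treatments, and C3 holds 1 to 13 reads in each, so this is a description and no finding. The log2 differences of these genes were 0.13 to 0.49, and 0 of them were called by limma with or without the block.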
